A study of Mus musculus with 5 samples.

Results

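The clustered protocadherin genes were taken as all genes of the RefSeq table on mouse chromosome 18 whose symbols start with Pcdha, Pcdhb or Pcdhg. These were 58 genes, 14 in the alpha, 22 in the beta and 22 in the gamma cluster, in a table with 21631 protein-coding genes on chromosomes 1 to 19 and X. Of the 58, Pcdhgb8 is listed as a transcribed pseudogene. The clusters span 912 kb (mm10, chromosome 18, 36930285 to 37841873), and a window with 200 kb on either side held 44 of the 86713 merged accessible regions of the series. Open chromatin was mapped by ATAC-seq, which uses a transposase to cut accessible DNA. Each library held 50K cells of the anterior forelimbs of 1 embryo at E11.5 (40 to 48 somites). The 3 mutant embryos were PrxCre/+;Smarcc1c/c and the 2 control embryos Prx+/+;Smarcc1c/c. All embryos thus carried the conditional allele of Smarcc1, which encodes the BAF155 subunit of the BAF chromatin remodelling complex, and only the mutants carried the Cre, which is driven in limb mesenchyme. Cells of other origin in the same bud, such as those of ectoderm, vessels, nerves and blood, are not expected to recombine the allele. Recombination itself was not analysed here.

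Clustered protocadherins are cell-surface adhesion proteins best known from neurons, where each cell switches on its own small set and so gains a surface identity. Every alpha and gamma gene has its own promoter and first exon, which is spliced to constant exons shared by the whole cluster, whereas beta genes are single-exon genes. Most of these promoters are chosen at random in each neuron with the help of the insulator protein CTCF, cohesin and distant enhancers. The C-type genes, Pcdhac1, Pcdhac2, Pcdhgc3, Pcdhgc4 and Pcdhgc5, lie next to the constant exons and are known to be regulated apart from the random choice. The RefSeq table shows the shared arrangement. The 14 alpha genes start at different positions and all end between 37187657 and 37188897, and the 22 gamma genes start at different positions and all end between 37840489 and 37841873.

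Peak lists rather than read counts were deposited, so a measurement is the presence of a called peak and the authors' fold over background at its summit. Mutants 1, 2 and 3 had 36719, 42794 and 27194 peaks, and controls 1 and 2 had 68959 and 60333. The lowest fold that a list holds was 2.47, 2.46 and 2.52 in the mutants and 2.43 and 2.29 in the controls, so weaker accessibility goes uncalled. The fold is the authors' value, relative to the background of the same library alone. It is given for each peak and orders peaks within a list. Read depth is unknown. The background recovered from the fold values was 5.48, 5.09 and 4.95 fragments per position in the mutants and 4.77 and 6.42 in the controls. Each library is a separate embryo of a bulk tissue, where fewer cells of a type with open chromatin and less accessibility per cell cannot be told apart.

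Nearly all variable promoters of the 3 clusters lacked a called peak in limb bud cells of either genotype, while 3 of the 5 C-type promoters were open in every library. A peak within 1 kb of the gene start was found for 5, 4 and 3 of the 58 genes in mutants 1, 2 and 3, and for 4 genes in each control. That is 8.62%, 6.90% and 5.17% of the genes in the mutants and 6.90% in each control. Among 14513 protein-coding genes with a single listed start elsewhere in the genome, the share was 58.7%, 60.5% and 55.4% in the mutants and 62.4% and 61.5% in the controls. Those starts come from the RefSeq promoter table, which holds none of the 58 genes, whose starts are their lower gene coordinates. The shares thus rest on different sources of starts. A start without a peak in any library was found for 52 of the 58 protocadherin genes, against 35.7% of the 14513 other genes, and a start with a peak in every library for 3 of the 58, against 54.3% of the others. The mean number of open starts was 4.0 ± 1.0 in mutants (SD, n = 3) and 4.0 ± 0.0 in controls (SD, n = 2), a difference of 0.0 (exact two-sided permutation p = 1.0). With 3 against 2 libraries this test cannot go below 0.2. Where the −log10 q had to reach 10, open starts averaged 1.67 in mutants and 3.0 in controls (exact two-sided permutation p = 0.2).

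**Figure D1:**
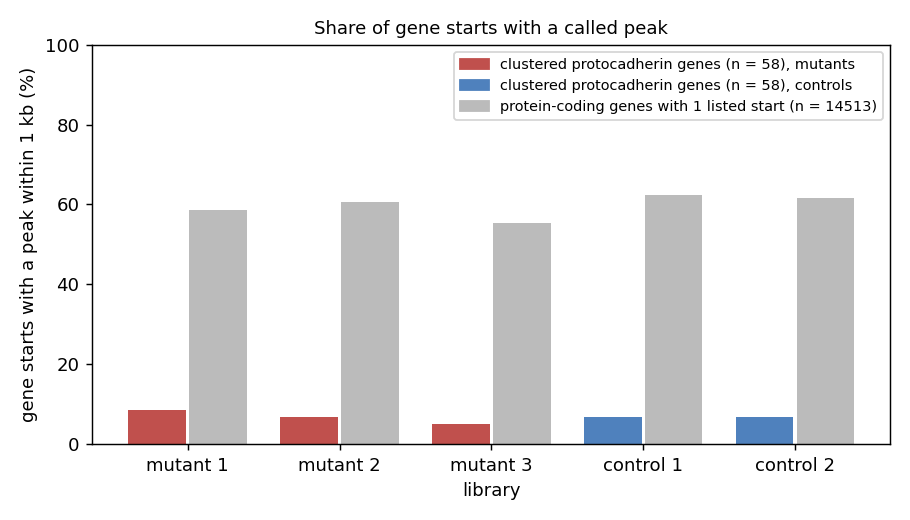
Percent of gene starts with a called peak within 1 kb (y axis) in each library (x axis), for the 58 clustered protocadherin genes (red mutants, blue controls) and for 14513 protein-coding genes with a single listed start (grey). The protocadherin share lay between 5.17% and 8.62% in every library, and the share of the other genes between 55.4% and 62.4%.

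All 5 C-type genes had a peak at the start in at least 1 library, and of the other 53 genes only Pcdhgb7 had. The count of open C-type starts was 4, 4 and 3 in the mutants and 3 and 4 in the controls. No list had a peak at the start of any of the 12 other alpha genes, the 22 beta genes or the remaining 18 of the 19 other gamma genes. The Pcdhgb7 start (37751619) lay 11 bp from a peak of fold 3.70 in mutant 1 and 14 bp from one of fold 2.95 in control 1, and no peak was called there in mutants 2 and 3 or in control 2. Both peaks were weak within their lists, above 33.8% of the peaks of mutant 1 and 4.49% of those of control 1.

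Pcdhgc3 held the strongest start of the family in every library. The gene (37806410 to 37841873) is the first C-type gene of the gamma cluster. The peak at its start had a fold of 8.49, 7.88 and 6.90 in mutants 1, 2 and 3 and of 9.36 and 8.35 in controls 1 and 2. It was stronger than 89.1%, 83.1% and 79.2% of the peaks of the mutant lists and than 90.8% and 88.1% of those of the control lists. Its summit lay 102, 46 and -199 bp from the annotated start in the mutants and 67 and -72 bp from it in the controls, where negative values lie before the gene. The peak was 1381, 1496 and 827 bp wide in the mutants and 1773 and 1152 bp in the controls. Further, weaker peaks inside the gene, in the same merged region (37805888 to 37808869), were called in mutants 1 and 2 and both controls and not in mutant 3.

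Pcdhgc4 was next in order in all 5 libraries. The start (37815079) held a peak with a fold of 4.94, 7.55 and 4.37 in mutants 1, 2 and 3 and of 8.15 and 7.55 in controls 1 and 2. Within their lists these stood above 61.6%, 81.5% and 49.2% of the mutant peaks and above 86.8% and 85.2% of the control peaks. The lists differ in length, so these places describe each list and show no change between libraries. The summits lay 102 to 174 bp inside the gene in every library.

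Pcdhac2, the last first exon of the alpha cluster, held a peak in every library and followed Pcdhgc4 in each of them. At its start (37143678) the fold was 4.01, 4.27 and 3.03 in mutants 1, 2 and 3 and 5.90 and 4.58 in controls 1 and 2. The peak of mutant 3, 221 bp wide, was near the bottom of its list, above 3.44% of the peaks. The other 4 stood between 43.5% and 74.8% of their lists, the controls at 74.8% and 63.8%.

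Pcdhac1 and Pcdhgc5 were at the limit of detection. The Pcdhac1 start (37090136) held a peak of fold 3.09 in mutant 1 and of fold 2.69 in control 2, and none in the other 3 libraries. The Pcdhgc5 start (37819546) counted as open only in mutant 2, through a peak of fold 2.96 whose edge lay 952 bp inside the gene, just within the limit of 1 kb. Well beyond the limit, a region inside Pcdhgc5 (37821916 to 37823103) was present in all 5 libraries, and its nearest peak edge lay 2802 and 2588 bp from the start in mutants 1 and 3 and 2370 and 2530 bp in controls 1 and 2. Its fold was 3.39, 4.76 and 3.36 in mutants 1, 2 and 3 and 5.20 and 4.58 in controls 1 and 2.

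**Figure D2:**
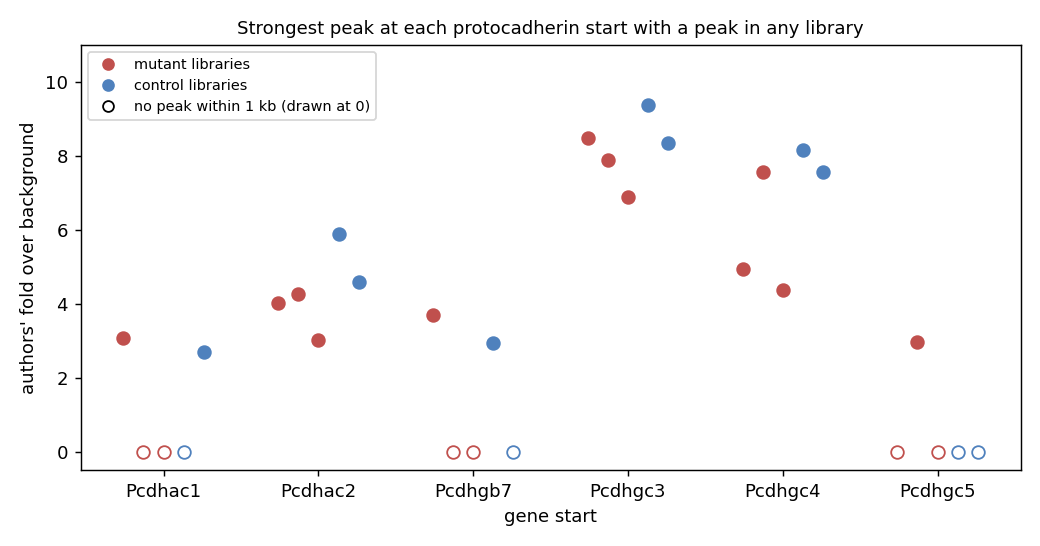
Authors' fold of the strongest peak within 1 kb of each gene start (y axis) for the 6 protocadherin genes with such a peak in any library (x axis); each point is a library, mutants red and to the left of the blue controls, and open circles drawn at 0 mark libraries without a peak. Pcdhgc3, Pcdhgc4 and Pcdhac2 had a peak in all 5 libraries, and their order was the same in each.

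Long stretches of the clusters held no peak in any of the 5 lists. The longest ran 426 kb (37218409 to 37643925) and held the starts of all 22 beta genes, together with Slc25a2, a gene of the mitochondrial carrier family. Of 86693 intervals between neighbouring regions in the genome, 571 were as long or longer (0.659%), and 37 held as many as its 23 protein-coding genes or more. A second stretch of 287 kb (36803341 to 37089901) held the starts of all 12 alpha genes outside the C-type. Another of 107 kb (37644639 to 37751629) held 16 gamma starts, the last of them that of Pcdhgb7 at its very edge, and 1 of 49.0 kb (37751975 to 37800935) held 3 more. The region at Taf7, a subunit of the general transcription factor TFIID whose gene lies between the beta and gamma clusters, was open in every library (37643926 to 37644638). Its fold was 6.02, 4.27 and 7.91 in mutants 1, 2 and 3 and 7.63 and 8.49 in controls 1 and 2, which bounds the beta stretch on that side. The clustered genes are similar in sequence, and the sources used here do not say whether reads that align to several copies were kept. The absence of peaks at these starts is uncertain to that extent.

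**Figure D3:**
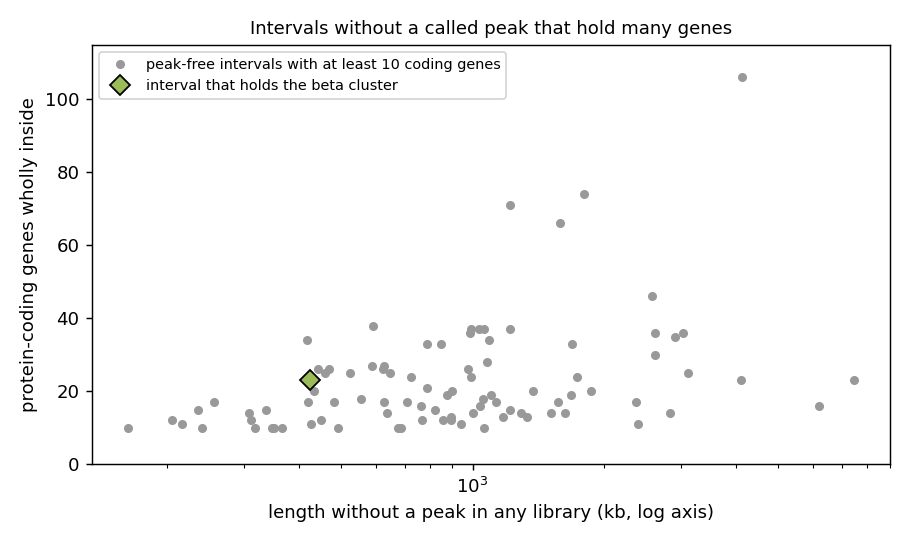
Length of intervals without a peak in any of the 5 libraries (x axis, kb, log axis) against the number of protein-coding genes wholly inside (y axis), for all intervals with at least 10 such genes (grey). The diamond is the 426 kb interval with the beta cluster, which held 23 genes.

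Within the alpha and gamma clusters, most accessible regions lay toward the constant exons. From Pcdha1 to just before Pcdhac1, 159 kb held 0 regions, while the following 99.8 kb to the end of the cluster held 4, or 4.01 per 100 kb. From Pcdhga1 to just before Pcdhgc3, 144 kb held 2 regions, while the last 36.5 kb held 9, or 24.7 per 100 kb. These are regions called in any list. Of the 9, mutants 1, 2 and 3 held 3, 9 and 4 and the controls 7 each, 3 were in every list, and 2 in mutant 2 alone. Over chromosomes 1 to 19 and X the density was 3.38 regions per 100 kb, over the 3 clusters as a whole 1.86, and over the flanks 6.75.

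**Figure D4:**
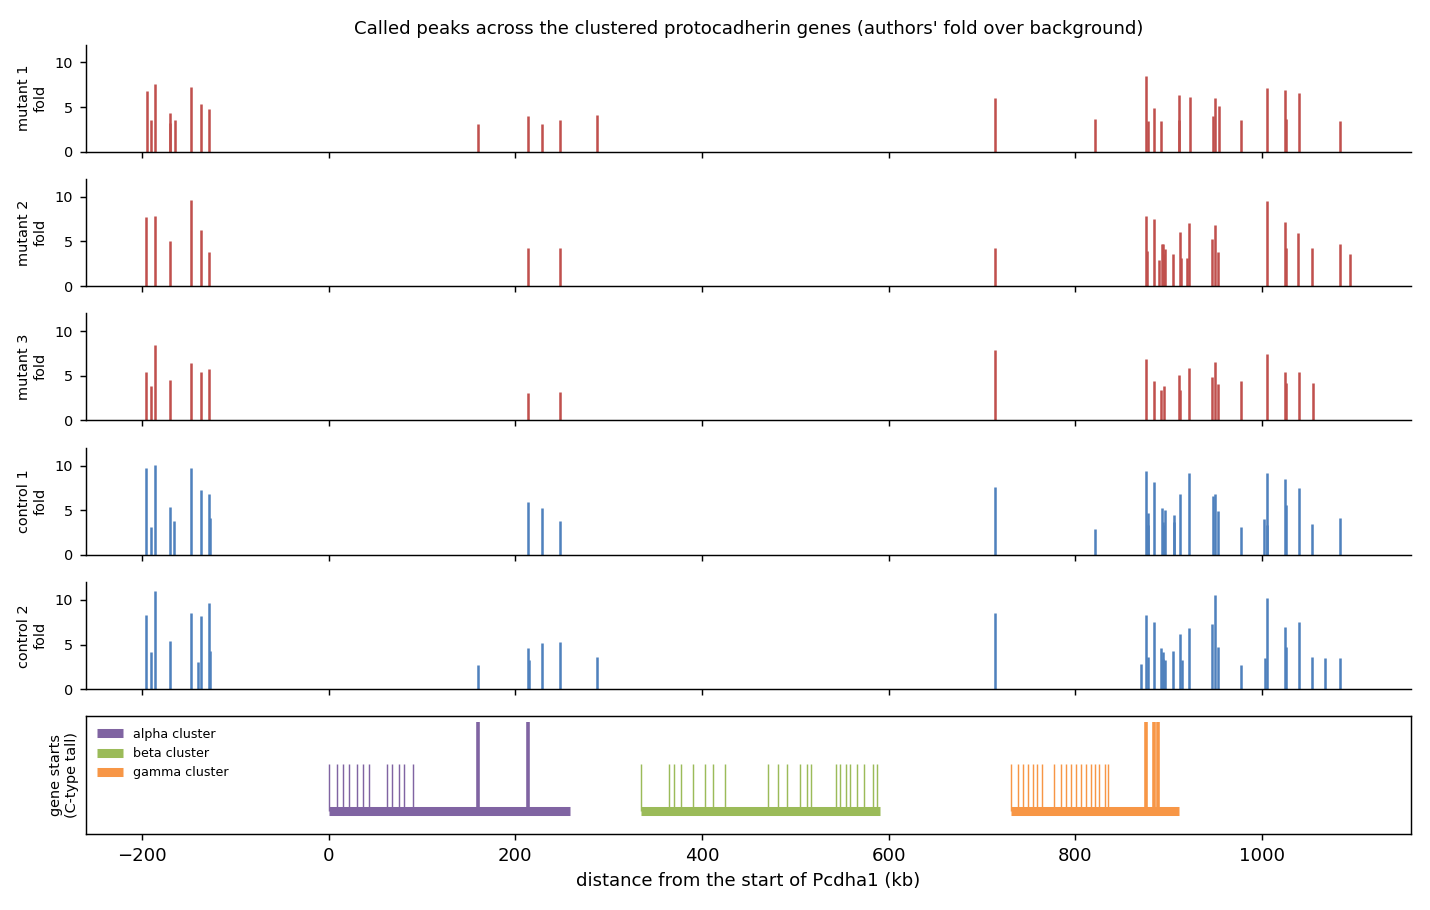
Called peaks across the 3 clusters and their flanks, as bars at the summit with the authors' fold as height (y axis), for each library (rows, mutants above controls) against the distance from the start of Pcdha1 in kb (x axis). The lowest row gives the extent of each cluster and the gene starts, C-type starts drawn taller; bars were absent over the beta cluster in all 5 libraries.

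Away from gene starts, the alpha cluster held a pair of regions between Pcdhac2 and the end of the constant exons. The one with the higher mean fold of the controls (37158807 to 37159602) lay 15.6 kb into Pcdhac2 and had a fold of 3.09 in mutant 1 and of 5.20 and 5.12 in controls 1 and 2, with no peak in mutants 2 and 3. The other (37178192 to 37178912) lay 34.9 kb into Pcdhac2 and was present in every library. Its fold was 3.55, 4.27 and 3.20 in mutants 1, 2 and 3 and 3.81 and 5.25 in controls 1 and 2. This part of the alpha cluster is where an enhancer among the constant exons is known in mouse. A further alpha enhancer is known beyond the constant exons, toward the beta cluster. In that interval 1 region was called (37218106 to 37218408), 29.3 kb after the end of the cluster. It had a fold of 4.17 in mutant 1 and of 3.64 in control 2 and no peak in mutants 2 and 3 or control 1. Whether these regions are the known enhancers was not tested.

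In the stretch after the Pcdhgc5 start the 3 mutants differed among themselves. Of 7 regions from the Pcdhgc5 start to the end of the cluster, mutants 1, 2 and 3 held 1, 7 and 2, and the controls 5 each. Of the 7, 2 were called in mutant 2 alone and so entered the set through that library. Of the 5 regions shared by the controls, mutants 1, 2 and 3 held 1, 5 and 2. By the mean fold of the controls, the next after the region described above were those at 37835408 to 37836869 and 37826387 to 37826891. The region at 37835408, 16.1 kb into Pcdhgc5, had a fold of 3.61 in mutant 2 and of 4.51 and 4.31 in controls 1 and 2. The region at 37826387 had a fold of 4.11 in mutant 2 and of 5.03 and 3.23 in controls 1 and 2. Neither was called in mutants 1 and 3. A region at 37824640 to 37825556 was present in mutants 2 and 3 (3.45 and 3.87) and in controls 1 and 2 (3.29 and 4.18), and not in mutant 1. Mutant 2 has the longest of the mutant lists, with 42794 peaks, and the part of list length in this result was not tested.

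No region of the clusters that both controls shared was missing from all 3 mutants. Of 11 such regions, 6 had a peak in every mutant and 5 in 1 or 2 of them. Over the whole genome both controls shared 45158 regions. No mutant had a peak in 30.4% of them, and all 3 mutants had one in 43.4%. Mutants 1, 2 and 3 held 7, 10 and 7 of the 11 regions, thus lacking 4, 1 and 4. In the genome they lacked 39.1%, 38.6% and 51.8% of the regions shared by the controls. Of the 11, 4 were gene-end regions, within 1 kb of the start or end of a protein-coding gene, and all 4 were present in every mutant. In the genome 81.3% of gene-end regions were present in every mutant and 4.64% in none. The other 7 were distal, of which 2 were present in every mutant. In the genome 26.4% of distal regions were present in every mutant and 42% in none. Genome-wide shares for the same class and control strength correspond to 3.10 of 11 regions absent from every mutant and 5.05 present in all, beside 0 and 6 observed. This is a description of few regions. The 0 became 1 without mutant 1 and 3 of 12 without mutant 2, and 1 of 15 and 1 of 13 without control 1 and control 2. With only peaks whose −log10 q reached 10, 2 of 6 were absent from every mutant. The genome-wide shares above are for all 5 libraries without a q limit. They are no background for the counts with a library left out or a stricter q-value. The 6 regions found in every mutant had mean control folds of 4.53 to 8.86 (median 6.54), and the 5 others 3.50 to 5.16 (median 4.13).

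**Figure D5:**
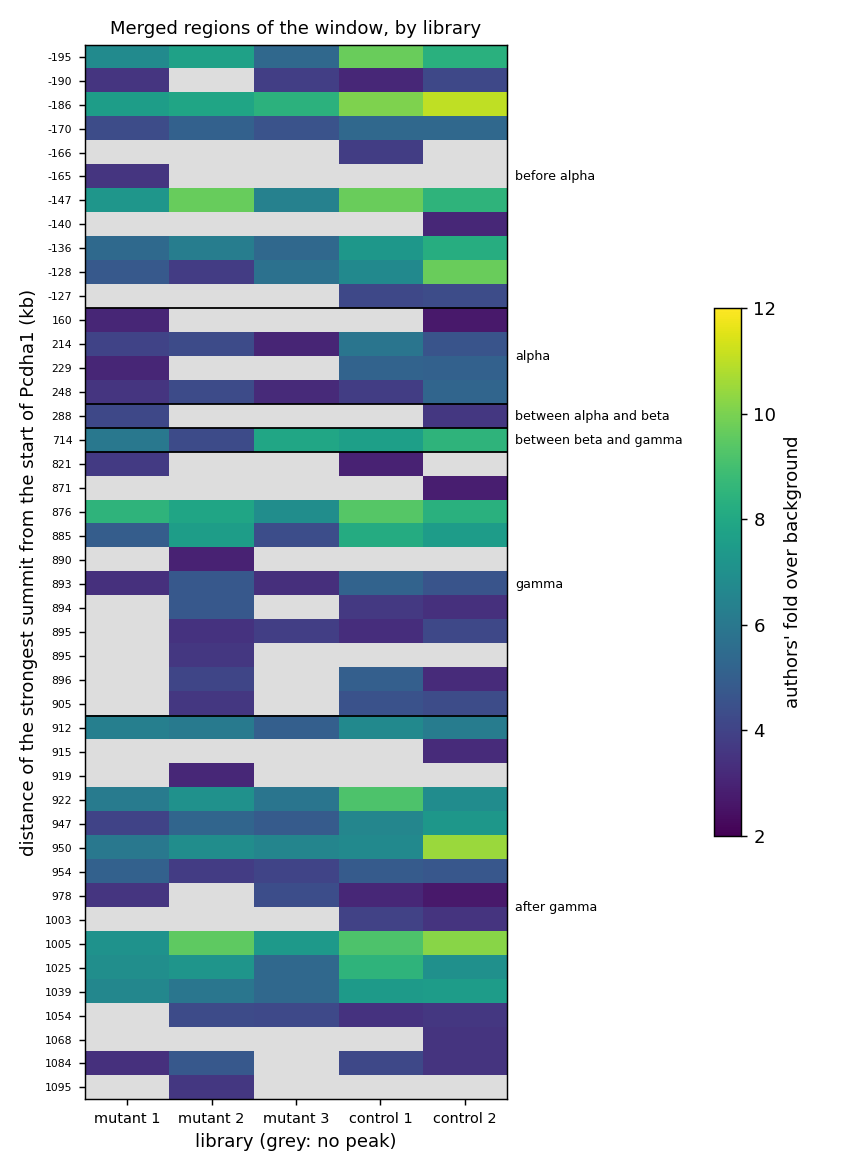
The 44 merged regions of the window from top to bottom (y axis, distance of the strongest summit from the start of Pcdha1 in kb) in each library (x axis, mutants left of controls), coloured by the authors' fold, with grey for no peak and black lines between segments. Of 31 regions in both controls, 20 were present in all 3 mutants and 2, both in the flanks, in none.

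Mutant lists held fewer peaks in the clusters than control lists, in number but not relative to list length. The clusters held 12, 13 and 7 peaks in mutants 1, 2 and 3 and 15 and 16 in controls 1 and 2. The means were 10.7 ± 3.2 in mutants (SD, n = 3) and 15.5 ± 0.71 in controls (SD, n = 2), a difference of -4.83 peaks (exact two-sided permutation p = 0.2, the smallest possible). All 3 mutants lay below both controls. Without mutant 3 the difference was -3.0. Per 1000 peaks of the same list, the clusters held 0.327, 0.304 and 0.257 in the mutants and 0.218 and 0.265 in the controls. The difference of 0.0546 (exact two-sided permutation p = 0.4, n = 3 and 2) had the opposite sign, and mutant 3 lay below control 2. Without control 1 it was 0.0308, and with only peaks whose −log10 q reached 10 it was -0.0823. With each list shortened to its 27194 strongest peaks, the mean number in the clusters was 8.67 in mutants and 8.50 in controls (exact two-sided permutation p = 1.0, n = 3 and 2).

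Regions at several genes on both sides of the clusters were present in every library. Before the alpha cluster, 6 of 11 regions were, beside 19579 of all 86713 regions of the series. Near gene ends, a region at the higher-coordinate end of Wdr55 was called in control 1 alone (fold 3.81), and another at Dnd1 in mutant 1 alone (fold 3.55). At the lower-coordinate end of Wdr55 a region (36759872 to 36760622) was present in every library. Its fold was 4.32, 5.09 and 4.54 in mutants 1, 2 and 3 and 5.37 and 5.39 in controls 1 and 2. The region between Ndufa2, a subunit of respiratory complex I, and the splicing factor gene Ik (36744104 to 36745437) had a fold of 7.56, 7.88 and 8.41 in mutants 1, 2 and 3 and of 10.1 and 11.05 in controls 1 and 2. Regions at the histidyl-tRNA synthetase genes Hars and Hars2 (36782689 to 36783884), at Tmco6 (36734343 to 36735751) and at Vaultrc5, which encodes a vault RNA (36801067 to 36802066), were present in all 5 libraries as well. On this side the limit of the window fell between a region at -204 kb from the Pcdha1 start, left out, and the one at Tmco6 at -195 kb.

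Beyond the gamma cluster, 8 of 16 regions were present in every library, beside 19579 of all 86713 regions of the series. The first overlapped the end of the gamma constant exons (37840973 to 37843566), with a fold of 6.33, 6.08 and 5.05 in mutants 1, 2 and 3 and of 6.76 and 6.20 in controls 1 and 2. Within Diaph1, which encodes a formin that nucleates actin filaments, 4 regions away from the gene ends were called in all libraries. The one with the highest mean fold of the controls (37879683 to 37880781), 38.4 kb after the last gamma gene, had a fold of 6.02, 6.90 and 6.56 in mutants 1, 2 and 3 and of 6.76 and 10.5 in controls 1 and 2. The next (37851857 to 37853416) had a fold of 6.17, 7.06 and 5.89 in the mutants and of 9.19 and 6.87 in the controls. The region at 37877133 to 37877963 had a fold of 4.01, 5.26 and 4.88 in the mutants and of 6.59 and 7.28 in the controls. Enhancers of the beta genes are known in mouse on this side of the gamma cluster, and whether these regions are among them was not tested. Further on, the regions at the higher-coordinate ends of Diaph1 (37934459 to 37936238) and of the histone deacetylase gene Hdac3 (37954344 to 37956623) were present in all 5 libraries. A region near the higher-coordinate end of Arap3 (37998319 to 37998769) was called in control 2 alone, with a fold of 3.50. On this side the limit of the window fell between a region 183 kb after the last gamma gene, present in mutant 2 alone, and one at 208 kb, left out, which was present in both controls alone.

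Of the 20 flank regions shared by the controls, 2 were absent from every mutant, and both were distal. The one near Vaultrc5 (36802968 to 36803340) had folds of 4.16 and 4.31 in controls 1 and 2. The one near the higher-coordinate end of Diaph1 (37932734 to 37933834) had folds of 3.99 and 3.50. Thus 2 of 31 window regions, or 6.45%, were absent, 1 on either side of the clusters, beside 30.4% of all regions and 42% of distal regions in the genome. Genome-wide shares for the same class and control strength correspond to 6.98 of the 31 window regions and 3.88 of the 20 flank regions. The count rested on the libraries used, with 5 of 32 without mutant 2, 6 of 38 without control 1 and 5 of 35 without control 2. The genome-wide shares above are for all 5 libraries, and none is given for these smaller sets.

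For regions present in all lists, the place of a region among the same 19579 regions can be set side by side between libraries. Pcdhac2 stood at percentile 14.4, 17.5 and 2.43 in mutants 1, 2 and 3 and at 27.0 and 18.5 in controls 1 and 2, so that every mutant lay below both controls (difference -11.3 points, exact two-sided permutation p = 0.2). It was the only one of the 6 cluster regions with that order, which 11.6% of all 19579 regions showed. Pcdhgc4 stood at 33.1, 60.8 and 36.1 in the mutants and 56.0 and 56.7 in the controls, and Pcdhgc3 at 80.2, 64.1 and 72.2 in the mutants and 68.9 and 64.9 in the controls, and for both genes the groups overlapped. In the flanks, 1 of 14 regions lay lower in every mutant and 1, at the end of the gamma constant exons, higher (55.5, 44.4 and 48.9 in mutants, 38.4 and 41.3 in controls), an order that 12.8% of all regions showed. Over the window, 2 of 20 regions lay lower in every mutant, and 9 of 20 without control 1, 4 of 22 without mutant 2 and 5 of 21 without mutant 3. With fewer libraries that order is easier to meet for any region. The share of 11.6% belongs to all 5 libraries, and none is given for the smaller sets. The counts with a library left out thus show no lowering particular to the window.

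Most genes that act on protocadherin promoter choice were open in both genotypes. The list held 19 genes of CTCF, cohesin and its loaders and release factors, DNA methylation and repressive chromatin. Of the 15 with a start in the RefSeq promoter table, 14, 15 and 15 had a peak there in mutants 1, 2 and 3 and 15 in each control. The exception was Setdb1, a histone H3 methyltransferase, in mutant 1. Among the 14513 genes with a single listed start, the share with a peak there was 55.4% to 62.4% over the libraries. By peaks within 1 kb of either annotated gene end, 13, 14 and 14 of the 19 genes were open in the mutants and 14 in each control, and 5 were open in no library. Of these 5, Nipbl, which encodes the cohesin loader, and the cohesin subunit gene Rad21 have no start in the promoter table, and within 10 kb of each gene the controls shared 1 region, present in every mutant. Within 10 kb of the 19 genes, 3 of 45 regions shared by the controls were absent from every mutant (6.67%), 2 of 9 at the DNA methyltransferase gene Dnmt3a and 1 of 2 at Dnmt3b. In the genome the share was 30.4%, with 4.64% of gene-end and 42% of distal regions, and the 45 were not split by class. At Ctcf, 2 regions were shared by the controls, of which 1 was in every mutant and neither was absent from all of them. Of the 16 genes of protocadherin signalling partners, 14 had a peak near a gene end in each mutant, against 14 and 15 in controls 1 and 2. No share by gene ends over all genes is given beside these counts or those of the regulators. All 9 partner genes with a listed start had a peak there in every library, beside 54.3% of the 14513 genes. Around the 16 partner genes 18 of 54 shared regions were absent from every mutant (33.3%), beside 30.4% in the genome. Fyn, a Src family kinase, made up 11 of the 18, out of 14 regions. Celsr1, a seven-pass cadherin, had 2 of 4 absent, and the focal adhesion kinase gene Ptk2 2 of 3. Outside the clusters, 8 of 9 protocadherin genes with a listed start, such as Pcdh7 and Pcdh10, were open at a start in all 5 libraries, and Pcdh15 in control 1 alone. A peak at any listed start of these genes counted, whereas each clustered gene had a single start. Of the 14513 genes with a single listed start, 54.3% were open in every library.

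Markers of the cells in the bud were open as follows. Of 6 limb mesenchyme genes, 6, 5 and 4 had a peak within 1 kb of a gene end in mutants 1, 2 and 3, against 6 in each control. Tbx5, the forelimb identity factor, lacked one in mutants 2 and 3, and Prrx2 in mutant 3. Tbx5 has no start in the promoter table, so its promoter was not measured as such. Within 10 kb of Tbx5, mutants 1, 2 and 3 held 12, 13 and 2 regions and controls 1 and 2 held 25 and 20. Of 8 neuron genes, 5, 6 and 4 were open in the mutants, against 8 and 7 in the controls. Neurod1 and Stmn2 were open in both controls and in no mutant. Neural crest and glia genes were open in 4, 5 and 4 of 5 in the mutants, against 5 and 4 in the controls, and muscle precursor genes in 2, 4 and 0 of 5 in the mutants, against 5 and 4 in the controls. Ectoderm genes were open in 3 of 6 in each mutant, against 4 and 5 in the controls, and endothelial genes in 1 of 5 in each mutant, against 3 and 1 in the controls. Trp63, Cdh5 and Pecam1 were open at neither end in any library. Blood genes were open in 2 of 5 in every library, with Gata1, Hbb-bt and Ptprc open at neither end in any. Gata1 and Hbb-bt had no peak within 10 kb either, while at Ptprc 2 regions were shared by the controls and absent from every mutant. Fewer neuron markers and fewer ectoderm markers were open in each mutant than in either control. The same order held for the 14513 genes with a single listed start, of which 58.7%, 60.5% and 55.4% were open in the mutants, against 62.4% and 61.5% in the controls. Those shares are for listed starts, whereas the markers were counted at either gene end. No share by gene ends over all genes is given, so the marker counts have no like background. The part of these cell types in the peak numbers at the protocadherin clusters was not tested.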

How the data were processed

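ATAC-seq peak lists of 5 embryos (3 mutants, 2 controls, grouped by the labelled genotype; replicate numbers only name samples) were used as deposited. The submitters' processing notes name bcl2fastq 2.20.0, Bowtie2 2.3.5, MACS2 and the build mm10. The version and options of MACS2, duplicate removal and the cut-site shift are not stated in the sources used here. The authors deposited 1 list per library, with peak positions and summit (other values, in bp), a display score (not used), a fold ratio over background, the −log10 q-value and the −log10 p-value.

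Overlapping peaks (1 bp or more) of all 5 lists on chromosomes 1 to 19 and X were joined into regions. The strongest peak gave a library's fold in a region, and the strongest summit its segment. Genes came from the RefSeq table (GRCm38.p6, the coordinates of mm10); its protein-coding entries counted as background, and all 58 members matched, of which Pcdhgb8 is a transcribed pseudogene. The lower coordinate was taken as the start of each member, since these clusters run that way. A start was open with a peak within 1 kb. Starts of other genes came from the RefSeq promoter table (250 bases before to 50 after the start), which lists some of the genes only. Annotated gene ends can miss the start in use. Gene-end regions overlap 1 kb around either end of a protein-coding gene. Control strength was the mean percentile of the fold in both control lists, in 10 classes.

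Group values were compared with an exact two-sided permutation test over libraries. Intervals between regions were listed on each chromosome. Background depth per position was recovered from the even spacing of the fold values. Merging was run on simulated peaks drawn around the centres of real regions shared by the controls. Peaks of a region always overlapped there, so split or barely touching peaks were not tested. Genes and regions named with values were the C-type genes, up to 5 starts per cluster with the highest control fold, starts open in all libraries or in mutants alone, and the 3 regions per segment with the highest control fold or, inside the clusters, a peak in every library. Up to 4 examples per flank and 6 per gene list were also named. Members, lists and rule were chosen with earlier results of these data known. The rank among shared regions was added after seeing the data, as were the comparison of clusters with intervals elsewhere and with protocadherins outside them. Python 3.11.15, numpy 2.4.6, pandas 2.3.3 and scipy 1.17.1 were used. Alternatives were stricter q-values, equal list length, other distances, overlaps and flanks, and leaving out each library.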

Additional observations from a re-analysis of the deposited data

How the results depend on the processing

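Peaks in the clusters differed by -4.83 between mutants and controls, and by -6.0 to -3.0 with 1 library left out. The sign turned with every list at equal length (0.167). The number per 1000 peaks differed by 0.0546, by 0.0308 to 0.0785 with 1 library left out, and turned to -0.0823 where the −log10 q had to reach 10; the cause was not tested. Open gene starts differed by 0.0, by -0.5 to 0.5 with 1 library left out, and by -1.33 where the −log10 q had to reach 10 (1.67 in mutants, 3.0 in controls). Window regions absent from every mutant numbered 2, and 2 to 6 with 1 library left out, 1 at equal list length, 1 with flanks of 100 kb and 0 with no flank, where fewer regions were counted. Cluster regions absent from every mutant numbered 0, and 0 to 3 with 1 library left out, 1 and 2 where the −log10 q had to reach 5 and 10 and 1 at equal list length, alternatives chosen after seeing the data. Genome-wide shares of absent regions are not given for these alternatives, in the window or in the clusters. No paired analysis was possible because replicate numbers only follow sample order. Depth is unknown, peaks near the lowest fold of a list can be missed, and 3 against 2 libraries cannot give p below 0.2.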
